A study of Rattus norvegicus with 31 samples.

Results

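Potassium channel genes of the Kcn family were followed in bulk RNA sequencing of rat fat. All gene entries of the deposited table whose name starts with Kcn were taken, leaving out Kcnj8 and Kcnj11, which gave 90 of 92 such entries among 32883 gene entries in all. The rats were male Sprague-Dawley rats of 10 to 15 weeks with a labelled time point of 15 weeks. In the coarctation groups a silk ligature was tied around the thoracic aorta over a needle that was then withdrawn, and the sham groups had the same operation with a loose ligature. The series design states a systolic gradient of about 20 mmHg across the coarctation at 4 weeks after surgery. Perivascular adipose tissue (PVAT), the fat around the thoracic aorta, gave 6 libraries from above the tied ligature (coarct above), 6 from below it (coarct below), 5 from above a loose ligature (sham above) and 5 from below it (sham below). Brown adipose tissue (BAT) gave 5 libraries from coarcted rats (coarct BAT) and 4 from sham rats (sham BAT). The sham groups carried the chest operation too, so no group is free of surgery, and all groups were intact animals with no transgene named in the labels.

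Kcn genes encode the pores and partner subunits through which potassium leaves or enters cells, and the outflow holds the membrane potential negative. Leak channels such as TASK-1, the product of Kcnk3, stay open at rest, voltage-gated channels open on depolarisation, calcium-activated channels open with a rise of calcium, and inward rectifiers pass potassium mainly near its equilibrium potential. Brown adipocytes are known to carry Kcnk3, where its current opposes the depolarisation and calcium entry that follow adrenergic stimulation. Arterial smooth muscle, sympathetic neurons, heart muscle and skeletal muscle each carry other sets of these channels. In bulk tissue a lower level may come from fewer cells of a type or from less RNA per cell, and these cannot be told apart.

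Promoter sequences were shown for 4 members that stand for the 4 patterns described here. Kcnd3 was higher in PVAT than in BAT of coarcted rats, Kcnj5 followed heart muscle transcripts, Kcna6 followed neuron transcripts, and Kcnc4 followed both skeletal muscle and neuron transcripts. The calls of Kcnc4, of Kcnj5 and of Kcnd3 above the ligature were lost when certain single libraries were left out. Each sequence runs from 250 bases before to 50 bases after the gene start in RefSeq, build GRCr8, 5′ to 3′ on the gene's strand, and capitals mark the GC box (GGGCGG on either strand). The windows are Kcnd3 at chr2:195626066-195626365 on the plus strand, and on the minus strand Kcnj5 at chr8:39011047-39011346, Kcna6 at chr4:161262303-161262602 and Kcnc4 at chr2:197788384-197788683.
Kcnd3: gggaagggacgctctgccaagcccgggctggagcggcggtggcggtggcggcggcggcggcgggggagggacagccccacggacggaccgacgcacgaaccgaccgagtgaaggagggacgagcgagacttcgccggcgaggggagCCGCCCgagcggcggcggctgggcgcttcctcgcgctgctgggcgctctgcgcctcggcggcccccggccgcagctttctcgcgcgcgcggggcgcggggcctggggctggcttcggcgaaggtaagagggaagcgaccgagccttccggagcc
Kcnj5: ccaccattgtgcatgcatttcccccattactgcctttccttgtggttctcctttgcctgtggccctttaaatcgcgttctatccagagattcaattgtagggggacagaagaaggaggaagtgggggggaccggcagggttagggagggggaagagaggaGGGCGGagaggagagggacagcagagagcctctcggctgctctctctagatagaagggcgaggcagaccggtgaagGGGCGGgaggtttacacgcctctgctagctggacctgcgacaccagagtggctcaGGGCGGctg
Kcna6: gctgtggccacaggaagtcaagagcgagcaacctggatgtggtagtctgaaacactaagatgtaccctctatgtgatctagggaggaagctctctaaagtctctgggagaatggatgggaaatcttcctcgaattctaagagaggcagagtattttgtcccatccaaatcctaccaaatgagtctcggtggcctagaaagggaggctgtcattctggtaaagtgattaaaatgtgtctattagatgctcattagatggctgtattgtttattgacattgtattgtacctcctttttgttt
Kcnc4: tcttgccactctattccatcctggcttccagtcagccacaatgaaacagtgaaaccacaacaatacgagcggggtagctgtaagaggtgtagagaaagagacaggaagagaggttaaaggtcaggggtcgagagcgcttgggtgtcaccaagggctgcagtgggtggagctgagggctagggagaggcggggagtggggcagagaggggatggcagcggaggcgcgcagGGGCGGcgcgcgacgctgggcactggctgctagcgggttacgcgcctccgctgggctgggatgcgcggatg
The GC content of these windows was 77.7% for Kcnd3, 59% for Kcnj5, 43% for Kcna6 and 62.3% for Kcnc4, against a median of 51.7% over 33469 promoters. The GC box occurred 1 time for Kcnd3, 3 times for Kcnj5, 0 times for Kcna6 and 1 time for Kcnc4, and 33.1% of all promoters held it. The E-box (CANNTG) was found 1 time each for Kcnj5 and Kcna6 and 0 times for Kcnd3 and Kcnc4, against a share of 72.1% of all promoters. The MEF2 core of muscle genes, CTA and TAG with any 4 bases between them, was found in none of the 4 and in 3.84% of all promoters. AGGTCA, a core motif of nuclear receptor sites, was found in Kcnc4 only among the 4, and in 16.2% of all promoters. Both strands were searched, the motifs do not contain each other, and a match describes letters and no binding. Sequences were found in the table for 61 of the 90 members.

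The count table held 15713160 to 26530733 counts per library. The adipocyte list, with genes such as Adipoq and Plin1, summed to 21500 to 30650 CPM (counts scaled to a common library total), and Ucp1, the uncoupling protein of brown fat, ranged from 693 to 2090 FPKM (fragments per kilobase of gene, scaled to library size), so the labelled fat identity was present in every library. Other tissues' transcripts came and went. The list of 20 sympathetic neuron genes summed to 461 to 1182 CPM in 5 libraries from below the ligature (coarct below 23, 25, 29 and 30, sham below 28) and to at most 32.8 CPM in the other 26, with Th and Dbh each at 0 in 16 of 31 libraries. The list of 8 heart muscle genes summed to 465 to 2941 CPM in 9 of 11 libraries from above the ligature, 0.712 CPM in coarct above 30, 39 CPM in sham above 20, and at most 12.8 CPM elsewhere. The skeletal muscle list, with 12 of 15 genes in the table, passed 500 CPM in 9 libraries of 5 groups, with the highest sum of 7025 CPM in coarct BAT 19. Libraries also split by mitochondrial 12S rRNA reads into 17 with them and 14 with few, and each group held both kinds.

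Most Kcn genes were near silent in these fats, and a single leak channel made up most of the family's transcripts. Of the 90 members, 3 had no count in any library, 22 had fewer than 31 counts in total, 39 had a mean below 0.1 FPKM and 12 reached 1 FPKM. By family, 1 of 14 tandem-pore leak channels, 5 of 28 voltage-gated pore subunits, 1 of 10 modifier subunits, 4 of 13 auxiliary subunits, 1 of 12 calcium- or sodium-activated channels and 0 of 13 inward rectifiers had a mean of at least 1 FPKM. The members with no count were Kcne1, a partner of Kcnq1, Kcnh5, a relative of the ether-a-go-go channels, and Kcnj4, an inward rectifier. Mean levels over all libraries, among the most abundant, were 118.8 FPKM for Kcnk3, 10.1 FPKM for Kcng2, 8.14 FPKM for Kcna5, 3.16 FPKM for Kcnh2 and 1.79 FPKM for Kcnd3. Next came Kcnip1 at 1.54 FPKM, Kcne4 at 1.42 FPKM, Kcnq1 at 1.40 FPKM and Kcnn1 at 1.33 FPKM. Kcnk3 held 51.2% to 80.8% of the members' summed FPKM per library, with a median of 63.5%, and the 5 highest members together held 66.7% to 91.5%.

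**Figure D1:**
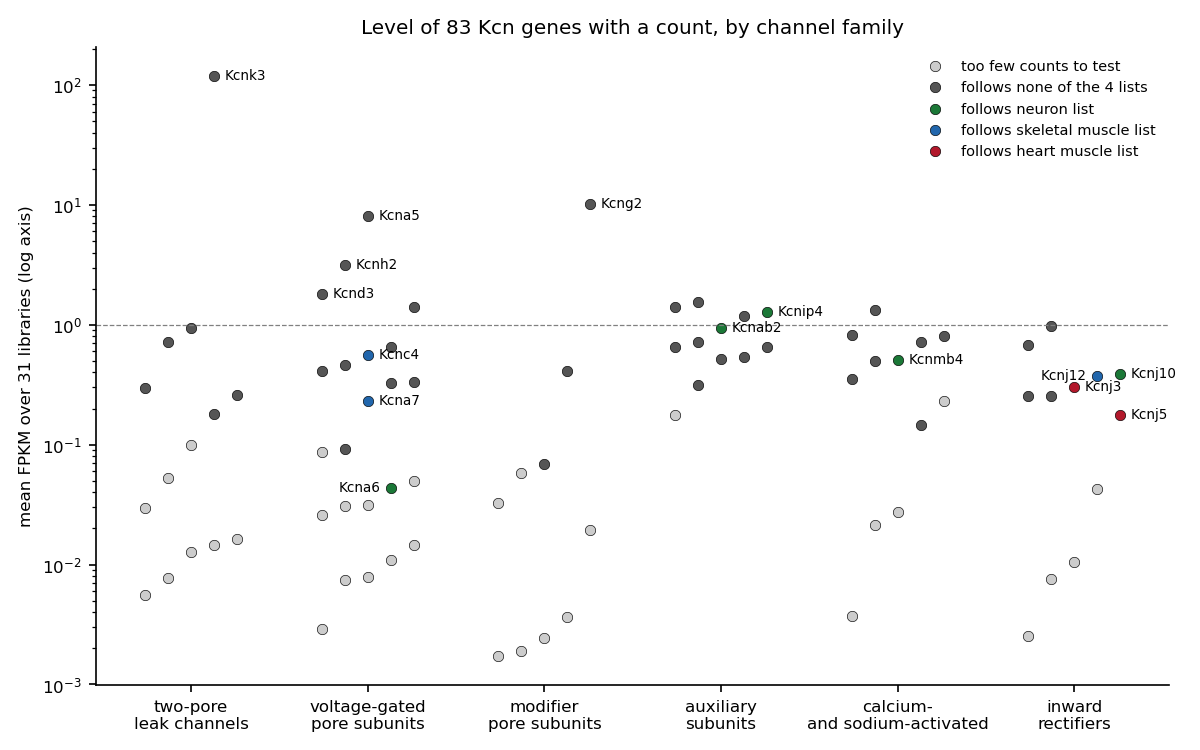
Mean FPKM over 31 libraries of 83 of the 87 Kcn genes with a count (the other 4 are not plotted), on a log axis and by channel family; each point is a gene, coloured by the marker list its counts followed within groups, and the dashed line is 1 FPKM. Kcnk3 at 118.8 FPKM stands above all others, and the genes that followed neuron or muscle lists lie at or below 1.29 FPKM.

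Kcnk3 (ENSRNOG00000009790, chromosome 6 in the files, whose genome build is not stated) was the leading channel in all 31 libraries. In coarct above it ranged from 93.6 over a median of 106 to 148 FPKM, and in coarct below from 92.8 over 103 to 158 FPKM. In sham above the libraries held 133, 130, 89.0, 96.5 and 129 FPKM, and in sham below 125, 174, 98.9, 133 and 121 FPKM. The PVAT groups overlapped almost entirely. In coarct BAT the libraries held 129, 99.8, 118, 100 and 144 FPKM, and in sham BAT 97.8, 235, 88.0 and 104 FPKM. Sham BAT 24 stood apart, at 235 FPKM against at most 104 FPKM in the other sham BAT libraries, and the highest group mean was 1.19 times the lowest. Without sham BAT 24 the log2 difference of coarct BAT minus sham BAT moved from -0.03 to 0.40 (adjusted p = 0.612 in edgeR's test), that of sham above minus sham BAT from -0.33 to 0.17 (adjusted p = 0.999) and that of sham below minus sham BAT from -0.06 to 0.44 (adjusted p = 0.473). Ordered by mean FPKM, the groups ran from sham BAT over sham below, coarct BAT, sham above and coarct above to coarct below, and none of the 9 pairs tested was called. The log2 difference of coarct minus sham was 0.03 ± 0.19 (SE) above the ligature, -0.32 ± 0.19 below it and -0.03 ± 0.31 in BAT, with adjusted p of 0.999, 0.881 and 0.979 in edgeR's quasi-likelihood test with Benjamini-Hochberg adjustment over all genes. The differences of PVAT minus BAT were -0.33 ± 0.28 and -0.06 ± 0.28 for sham above and below, and -0.22 ± 0.18 and -0.29 ± 0.18 for coarct above and below.

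Members were then sorted by a fit over all 31 libraries that held the 6 groups and the log2 summed CPM of 4 lists (sympathetic neuron, heart muscle, skeletal muscle and smooth muscle, none with a Kcn gene). A slope is the log2 change of a gene's counts per doubling of a list's sum, and a member was said to follow a list when its slope was positive at an adjusted p under 0.05. Of the 90 members, 53 had enough counts to be tested, 11 followed a list and 42 followed none. Those with a slope on no list included the 10 most abundant members. Kcnk3 had slopes of 0.01 ± 0.05 (SE) on the neuron list, -0.10 ± 0.04 on the heart list, 0.03 ± 0.03 on the skeletal muscle list and 0.09 ± 0.30 on the smooth muscle list, none called. Kcnk3 stayed between 88.0 and 235 FPKM while the neuron list ranged from 12.0 to 1182 CPM.

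Kcng2 encodes a modifier subunit that forms no channel alone and joins other voltage-gated subunits. It was present in every library, between 4.57 and 20.4 FPKM. Group means of Kcng2 were 10.1 ± 4.6 (SD, n = 6) in coarct above, 9.58 ± 5.4 (n = 6) in coarct below, 9.17 ± 2.1 (n = 5) in sham above, 13.2 ± 4.1 (n = 5) in sham below, 11.6 ± 6.5 (n = 5) in coarct BAT and 6.01 ± 1.6 FPKM (n = 4) in sham BAT. Spread within groups was large, so that each group's range overlapped with that of every other PVAT group. Kcna5, the delayed rectifier Kv1.5 known from arterial and atrial muscle, ranged from 3.07 to 16.2 FPKM, with its highest means in coarct BAT (10.7 ± 4.6) and sham BAT (9.07 ± 3.8). Kcnh2, the ERG channel of cardiac repolarisation, ranged from 1.11 to 5.31 FPKM. Of Kcnk3, Kcng2, Kcna5, Kcnh2 and Kcnd3, Kcnd3 alone had groups that did not overlap.

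**Figure D2:**
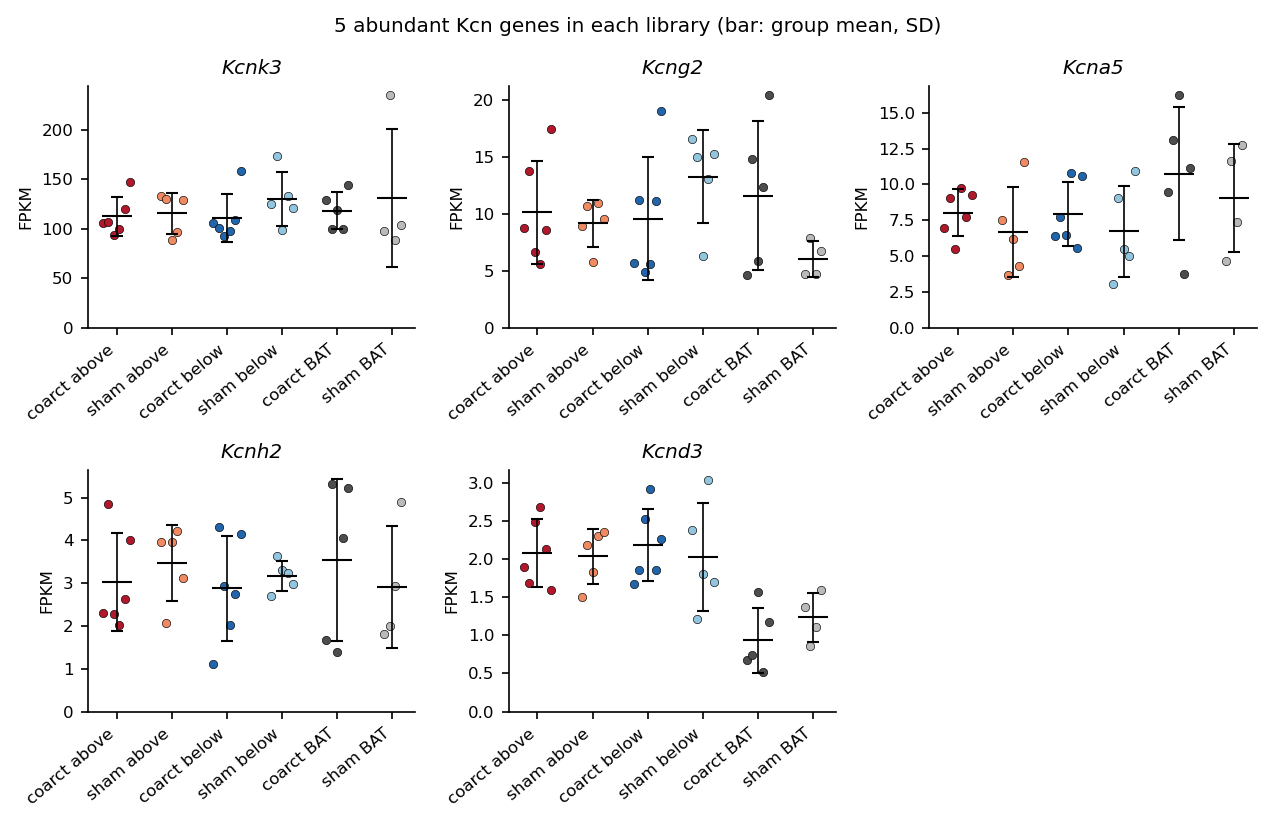
FPKM of Kcnk3, Kcng2, Kcna5, Kcnh2 and Kcnd3 in each library (points) of the 6 groups, on linear axes from 0; the bar and whiskers are the group mean and SD. Kcnk3 in sham BAT 24 lies at 235 FPKM, and all coarct PVAT libraries of Kcnd3 lie above the coarct BAT libraries, the highest of which is at 1.57 FPKM.

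Against the adipocyte list, fitted alone with the groups, 3 of 53 members were called in either direction, where 6.45% of all genes were called. Kcnh2 and Kcng2 had positive slopes of 2.33 ± 0.67 (SE, adjusted p = 0.0397) and 2.70 ± 0.80 (adjusted p = 0.0428) in edgeR's test. Kcnma1, the pore of the large-conductance calcium-activated channel, had a negative slope of -4.22 ± 1.16 (adjusted p = 0.0338). Of 12 smooth muscle genes 4 also fell with the adipocyte list and 1 rose, with a median slope of -0.33, and their part in the slope of Kcnma1 was not tested. Kcnk3 had a slope of 0.58 ± 0.53 with an adjusted p of 0.515 and was not called, nor was Kcna5 at 1.17 ± 0.71. The adipocyte sum varied little, from 21500 to 30650 CPM, so that these slopes rest on less than a doubling of the list. Within the 22 PVAT libraries 2 members were called, and none of the 3 was among them. For Kcnk3, the data behind the name of an adipocyte channel are its level in every library and the absence of a called slope on the neuron and muscle lists, and its slope on the adipocyte list was not distinguishable from 0. An uncalled slope is not shown to be 0, and that on the smooth muscle list had an SE of 0.30. On the macrophage list Kcnk3 had an uncalled slope of -0.45 ± 0.14 (SE, adjusted p = 0.0736 in edgeR's test).

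Channels known from vascular muscle and endothelium were low beside Kcnk3, though not all were scarce. Kcna5, with a mean of 8.14 FPKM and a range of 3.07 to 16.2 FPKM, lay above the others named in this paragraph. Kcnma1 ranged from 0.0129 to 0.51 FPKM and its smooth muscle partner Kcnmb1 from 0.111 to 0.975 FPKM. The Kv7 channels Kcnq1 and Kcnq5, which relax arteries when opened, ranged from 0.598 to 2.70 and from 0.0204 to 1.70 FPKM. The endothelial calcium-activated channels Kcnn3 and Kcnn4 ranged from 0.228 to 2.53 and from 0.325 to 1.70 FPKM, and the inward rectifier Kcnj2 from 0.0308 to 1.43 FPKM. No member followed the smooth muscle list in edgeR's joint fit (0 of 53), where 0.919% of all genes had a called positive slope. An unadjusted p under 0.05 was found for 4 members, against 18% of all genes, and DESeq2 called 1, Kcna5. DESeq2's share over all genes is not given here. Kcna5 came nearest, with a slope of 1.26 ± 0.41 (SE) and an adjusted p of 0.0937. Kcnma1 and Kcnmb1 had slopes of 0.19 ± 0.71 and -0.12 ± 0.70. The smooth muscle sum ranged only from 574 to 1123 CPM, and the wide errors leave slopes of 1 per doubling undetectable for most of these genes.

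Several Kcn genes rose with the neuron list, and markers of glia rose with it too. Of 53 members tested, 7 rose with the neuron list (13.2%), where 2.93% of all genes had a called positive slope, and the members' median slope was 0.05 against -0.01 over all genes. Among them Kcna6, a Kv1 pore subunit, had a slope of 1.23 ± 0.19 (SE, adjusted p = 0.000478). Kcna6 passed the count filter only through libraries rich in neuron transcripts, so a higher level there was fixed by the filter. The share of 13.2% is therefore no evidence about the members as a set. Kcnmb4, the neuronal partner of Kcnma1, had a slope of 0.58 ± 0.12 (adjusted p = 0.00258). Kcnip4, a calcium-binding partner of Kv4 channels, rose by 0.31 ± 0.08 (adjusted p = 0.0137) and Kcnj10, the Kir4.1 rectifier of glia, by 0.50 ± 0.12 (adjusted p = 0.0138). Of 11 genes of the Schwann cell list, the glia of peripheral nerves, 7 rose with the neuron list as well, with a median slope of 0.27, and their part in the members' slopes was not tested. Kcnab2, a cytoplasmic beta subunit of Kv1 channels, rose by 0.19 ± 0.05 (adjusted p = 0.0258), and Kcnc4, a fast Kv3 pore subunit, by 0.40 ± 0.11 (adjusted p = 0.0406). A slope near 1 means that the gene doubled when the list doubled, and a slope below 1 means that it rose less than the list did.

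Kcna6 was at 0 in 22 of 31 libraries. It held 0.215, 0.449, 0.141 and 0.272 FPKM in coarct below 23, 25, 29 and 30 and 0.238 FPKM in sham below 28, and at most 0.0152 FPKM in the other 26 libraries, so that these 5 lay above all others. Kcnmb4 ranged from 1.40 to 3.63 FPKM in the 5 libraries and from 0 to 0.659 FPKM elsewhere. Kcnip4 ranged from 1.997 to 4.28 FPKM in the 5 and from 0.393 to 0.938 FPKM in the other 6 libraries from below the ligature. In BAT, where the neuron list summed to at most 32.8 CPM, Kcnip4 still reached 2.46 FPKM. Kcnab2 was present throughout, at 1.18 to 2.59 FPKM in the 5 libraries and 0.503 to 1.12 FPKM in the other 6 from below the ligature. It also reached 1.70 FPKM in sham BAT 22, at 32.8 CPM of the neuron list. These differences depend on few libraries. Leaving out sham below 28 left 3 of the 7 (Kcna6 and Kcnj10 among them), and leaving out coarct below 19 or coarct below 27 left 4 each. Kcnip4 without sham below 28 had an adjusted p of 0.223, and Kcnc4 lost its call in 11 of 31 such fits, with an adjusted p up to 0.395. With the title number as a block 1 of the 7 was called, Kcnab2 (slope 0.29, adjusted p = 0.0211), and Kcnmb4 (0.51, adjusted p = 0.153) and Kcnj10 (0.43, adjusted p = 0.35) were not.

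**Figure D3:**
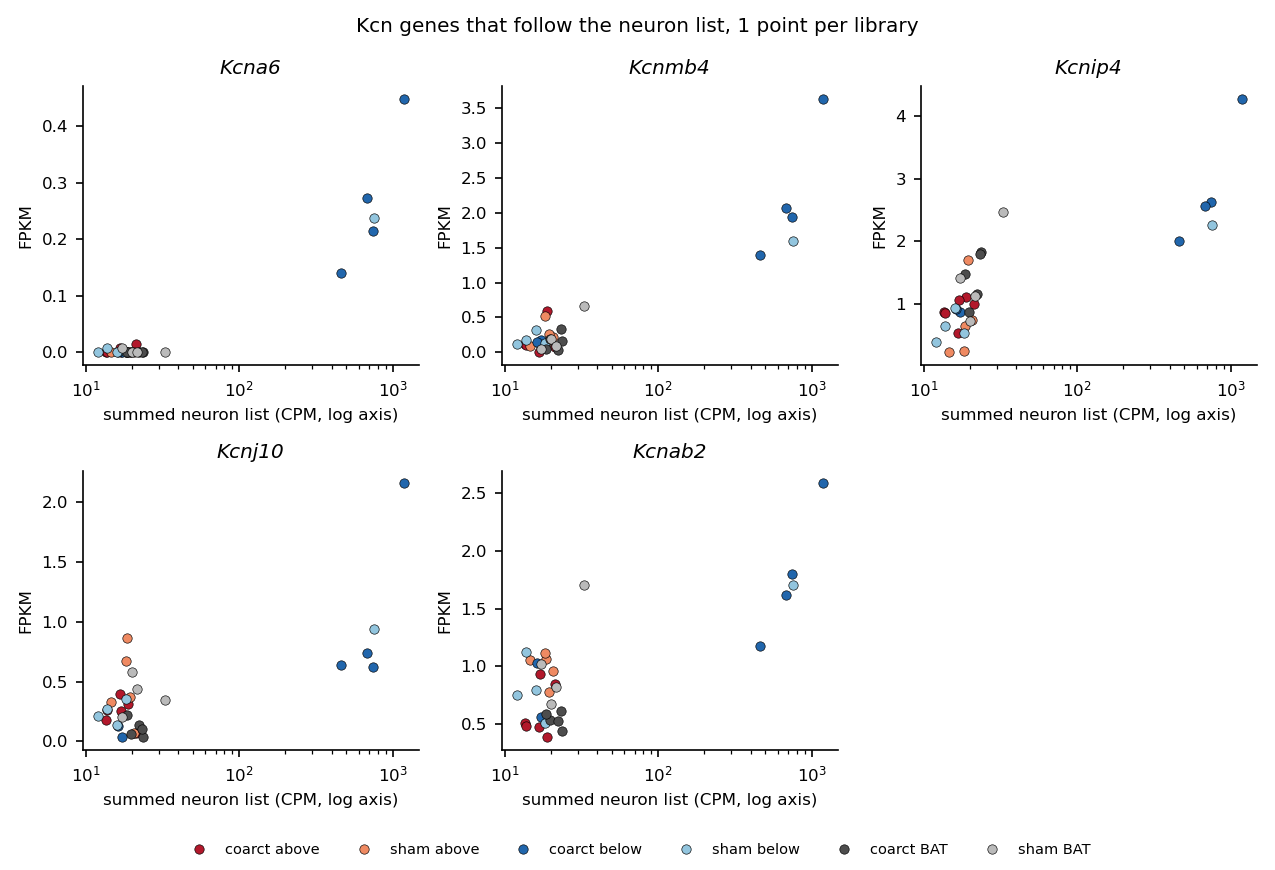
FPKM (linear axis) of Kcna6, Kcnmb4, Kcnip4, Kcnj10 and Kcnab2 against the summed CPM of the 20 neuron genes (log axis), 1 point per library coloured by group. The 5 libraries at 461 to 1182 CPM, 4 of coarct below and 1 of sham below, carry the high values of Kcna6 and Kcnmb4.

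Heart muscle transcripts were followed by both subunits of the G protein-gated rectifier of the atrium. Of 53 members, 2 rose with the heart list (3.77%), against 0.626% of all genes with a called positive slope. The median slope was 0.05 for the members and 0.01 for all genes. Kcnj3, the subunit GIRK1, had a slope of 0.92 ± 0.15 (SE, adjusted p = 0.00368), and its partner Kcnj5, GIRK4, one of 0.59 ± 0.11 (adjusted p = 0.00533). Both passed the count filter only through libraries with heart transcripts, so a higher level there was fixed by the filter. The share of 3.77% is therefore no evidence about the members as a set. Kcnk2, the stretch-activated leak channel TREK-1, had a slope of 0.52 ± 0.13 that missed the threshold (adjusted p = 0.0657), as did Kcnj2, the Kir2.1 rectifier, at 0.37 ± 0.10 (adjusted p = 0.0772). Kcnj3 ranged from 0 over a median of 0.655 to 2.20 FPKM in coarct above and held 0, 0.764, 0.946, 1.63 and 1.11 FPKM in sham above. The zeros are coarct above 30 and sham above 20, the libraries with the least heart list, and the highest values are those with the most, coarct above 19 at 2941 CPM and sham above 28 at 1860 CPM. Below the ligature Kcnj3 reached at most 0.105 FPKM, and in the 9 BAT libraries it had no count. Kcnj5 ranged from 0.165 to 1.49 FPKM in the 9 libraries with heart transcripts and from 0 to 0.122 FPKM in all others. Kcnk2 ranged from 0.304 to 2.41 FPKM in those 9 and from 0 to 0.156 FPKM in the others. Leaving out sham above 20 ended both calls (adjusted p = 0.0798 for Kcnj3 and 0.0555 for Kcnj5), leaving out coarct above 19 ended that of Kcnj5 (adjusted p = 0.0698), and leaving out coarct above 30 raised the count to 4 with Kcnj2 and Kcnk2. For that last fit the share of all genes called is not given here. With the title number as a block neither was called, at slopes of 0.80 for Kcnj3 (adjusted p = 0.722) and 0.63 for Kcnj5 (adjusted p = 0.239). Of the 6 pairs of groups checked, only sham below and sham BAT met the pairing rule, a correlation above 0.1 in every pair. In other pairs of groups libraries often correlated best with their own number, so pairing there is not excluded.

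Skeletal muscle transcripts were followed by 3 of 53 members (5.66%), against 1.05% of all genes. The median slope was -0.01 for the members and -0.00199 for all genes. Kcna7, a Kv1 pore subunit known from skeletal muscle, had a slope of 0.53 ± 0.06 (SE, adjusted p = 2.83e-06). Kcna7 passed the count filter only through libraries rich in skeletal muscle transcripts, so a higher level there was fixed by the filter. The share of 5.66% is therefore no evidence about the members as a set. Kcnc4 had one of 0.35 ± 0.07 (adjusted p = 0.00383) and Kcnj12, the Kir2.2 rectifier, one of 0.28 ± 0.06 (adjusted p = 0.0209). Kcna7 was low in most libraries and high in 3, with 1.49 FPKM in coarct BAT 19, 1.62 FPKM in coarct below 25 and 0.733 FPKM in coarct above 29, which also had the highest sums of the skeletal list (7025, 3225 and 2125 CPM). In the 22 libraries under 500 CPM of the list, Kcna7 ranged from 0.0134 to 0.184 FPKM, and in the other 9 from 0.127 to 1.62 FPKM. Kcnc4 reached 3.11 FPKM in coarct BAT 19 at 19.8 CPM of the neuron list, 3.27 FPKM in coarct below 25 with both kinds, and 1.01 to 1.83 FPKM in the other neuron-rich libraries. Without coarct BAT 19 the calls of Kcnc4 and Kcnj12 were lost (adjusted p = 0.274 and 0.596) and 1 was left, Kcna7. Kcnj12 also lost its call without sham below 22 (adjusted p = 0.0629) and without coarct above 30 (adjusted p = 0.0667). With the title number as a block Kcna7 was called (adjusted p = 0.00118), and Kcnc4 and Kcnj12 were not (adjusted p = 0.101 and 0.418).

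**Figure D4:**
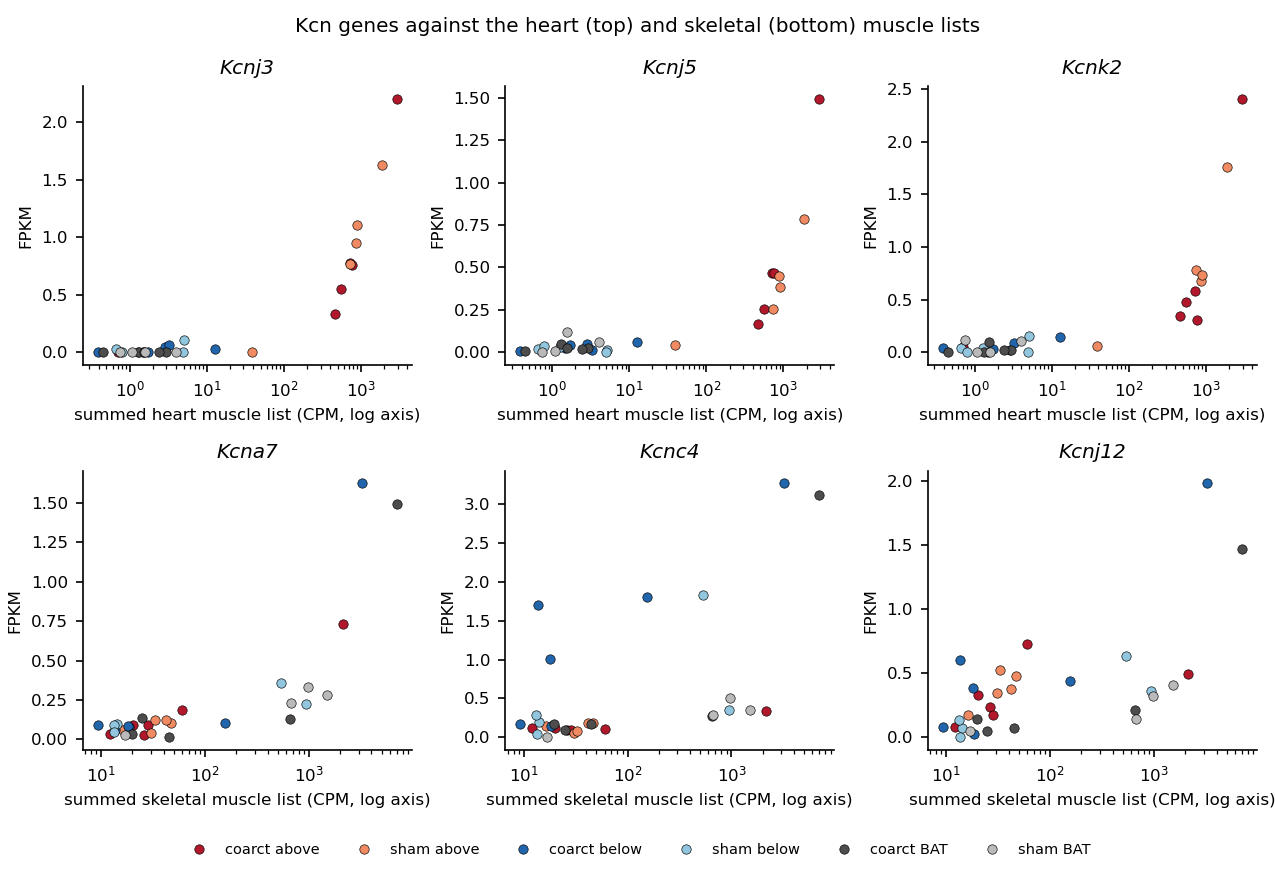
FPKM (linear axis) of Kcnj3, Kcnj5 and Kcnk2 against the summed CPM of the heart list and of Kcna7, Kcnc4 and Kcnj12 against that of the skeletal muscle list (log axes), 1 point per library coloured by group. The 9 libraries above the ligature at 465 CPM or more of the heart list carry the Kcnj3 values of 0.333 to 2.20 FPKM, and coarct BAT 19 and coarct below 25 carry the highest values of Kcna7.

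Other cell types gave few calls when their lists were fitted one at a time. With the macrophage list 2 of 53 members were called, where 3.72% of all genes were. They were Kcnk5, an acid-sensitive leak channel, at a slope of 0.78 ± 0.17 (SE, adjusted p = 0.0078) and Kcnip1, a partner of Kv4 channels, at 1.241 ± 0.32 (adjusted p = 0.0231). Of 8 fibroblast genes 6 rose with the macrophage list, with a median slope of 0.74, and their part in both slopes was not tested. With the endothelial list 1 member was called, Kcnd1, a Kv4 pore subunit, at 1.04 ± 0.28 (adjusted p = 0.0137), where 13.9% of all genes were called. With the Schwann cell and mesothelial lists 0 members were called in edgeR's test, where 0.446% and 0.493% of all genes were. An unadjusted p under 0.05 was found for 10 and 0 members, against 13.7% and 7.32% of all genes. Kcnk5 ranged from 0.319 to 2.37 FPKM and Kcnip1 from 0.347 to 4.07 FPKM. The share of members called lay below that of all genes for the endothelial list (1.89% against 13.9%). It lay near it for the adipocyte list (5.66% against 6.45%) and the macrophage list (3.77% against 3.72%).

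PVAT and BAT differed in few channels, and Kcnd3, which followed none of the 4 lists, was the one called in both coarct comparisons. Kcnd3 encodes Kv4.3, a fast transient channel of heart and neurons. It ranged from 1.60 over a median of 2.02 to 2.69 FPKM in coarct above and from 1.68 over 2.07 to 2.93 FPKM in coarct below. In coarct BAT it held 0.674, 0.742, 1.57, 0.519 and 1.17 FPKM. All 12 coarct PVAT libraries lay above all 5 coarct BAT libraries, though by little, at 1.60 against 1.57 FPKM. In sham animals Kcnd3 held 1.51, 2.20, 1.83, 2.31 and 2.36 FPKM above, 2.38, 1.21, 1.80, 3.05 and 1.70 FPKM below, and 1.38, 0.856, 1.12 and 1.60 FPKM in BAT, where the ranges overlapped. The log2 difference of PVAT minus BAT was 1.02 ± 0.22 (SE, adjusted p = 0.0262) for coarct above and 1.04 ± 0.22 (adjusted p = 0.0132) for coarct below. It was 0.61 ± 0.26 (adjusted p = 0.556) for sham above and 0.70 ± 0.26 (adjusted p = 0.321) for sham below, and the sham and coarct fits have no library in common. Whether the PVAT to BAT difference differed with surgery was not tested. Coarct above and coarct below share the BAT libraries, so their values are not independent. Leaving out any of coarct BAT 19, 23 or 29 or coarct above 25, 27 or 29 raised the adjusted p of the comparison above the ligature to between 0.0608 and 0.0893, while below the ligature the call held in all 17 such fits.

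**Figure D5:**
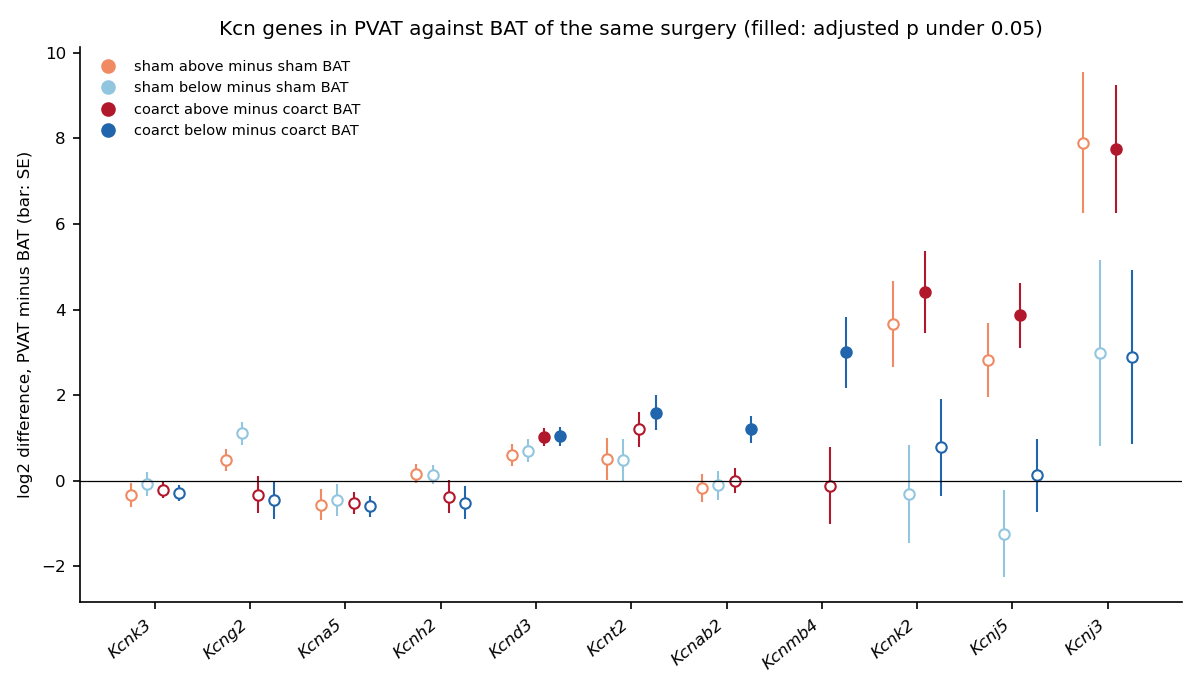
Log2 difference of PVAT minus BAT of the same surgery for 11 Kcn genes (points) with its SE (bars), in 4 comparisons; filled points have an adjusted p under 0.05, and a gene with too few counts in a fit has no point. Kcnd3 lies between 0.61 and 1.04 in all 4, and Kcnj3, Kcnj5 and Kcnk2 lie between 2.82 and 7.90 in both comparisons from above the ligature.

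In coarct above minus coarct BAT, 4 of 48 members were called (8.33%), all higher in PVAT, where 1.28% of all genes were called. Beside Kcnd3 they were Kcnj5 at 3.86 ± 0.77 (SE, adjusted p = 0.0161), Kcnj3 at 7.75 ± 1.49 (adjusted p = 0.0216) and Kcnk2 at 4.41 ± 0.96 (adjusted p = 0.0287). Kcnj3 and Kcnj5 followed the heart list, and the slope of Kcnk2 on it missed the threshold. For Kcnj3 the fitted difference rests on a BAT group with no count, and the counts, 168 against a floor of 3 over the group, give a level at least 44.1-fold higher. Of the heart list, 7 of 7 tested genes were called higher in this comparison, with 0.712 to 2941 CPM in coarct above and 0.444 to 2.96 CPM in coarct BAT. With the neuron, heart and skeletal lists as covariates none of the 4 was called, and Kcnj5 changed sign to -0.67 (adjusted p = 0.986). The heart list differed nearly as the groups did, with medians of 637 CPM in coarct above and 1.54 CPM in coarct BAT. The covariate fit therefore cannot separate list from group, and no conclusion is drawn from it. The median over the 48 members was -0.01, against -0.01 over all genes, also with Kcnj3 at its bound. The count was 0 without coarct BAT 19, coarct above 25, coarct above 27 or coarct above 29, 1 without coarct above 19, coarct above 23 or coarct BAT 29, and 2 without coarct BAT 23. Without any one of coarct above 19, 23, 25, 27 or 29, Kcnj3, Kcnj5 and Kcnk2 had too few libraries with counts to be tested. They passed the count filter only through coarct above, so a higher level there was fixed by the filter. The share of 8.33% is therefore no evidence about the members as a set.

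In coarct below minus coarct BAT, 4 of 48 members were called (8.33%), all higher in PVAT, where 4.2% of all genes were called. Beside Kcnd3 they were Kcnab2 at 1.20 ± 0.31 (SE, adjusted p = 0.037), Kcnmb4 at 3.0 ± 0.83 (adjusted p = 0.0485) and Kcnt2, a sodium-activated channel, at 1.59 ± 0.41 (adjusted p = 0.0385). Kcnt2 ranged from 0.235 to 0.680 FPKM in coarct below and from 0.0523 to 0.275 FPKM in coarct BAT, and its slope on the neuron list was not called. Kcnab2 and Kcnmb4 are among the neuron followers, and the neuron list summed to 16.2 to 1182 CPM in coarct below and 18.5 to 23.7 CPM in coarct BAT. Without the neuron-rich libraries 0 members were called by edgeR, Kcnab2 fell to 0.36 (adjusted p = 0.70), Kcnt2 stood at 1.33 (adjusted p = 0.397) and Kcnd3 at 1.13 (adjusted p = 0.173), with 2 coarct below libraries left. The median over the members was 0.32, against 0.00214 over all genes. The count was 1, Kcnd3, without coarct below 23, 25, 29 or 30, 2 without coarct BAT 19 and 10 without coarct BAT 27. What share of all genes was called in fits without 1 library is not given here. Kcnab2 and Kcnt2 each lost their call in 8 of 17 such fits and Kcnmb4 in 8 of the 12 that could test it. Kcnmb4 passed the count filter only through PVAT libraries, so for it a higher level in PVAT was fixed by the filter. Mesothelial transcripts, of the lining around the vessel's fat, moved with every PVAT to BAT comparison, at 19.9 to 178 CPM in PVAT and at most 5.16 CPM in BAT summed over 8 list genes, of which 5 or 6 of 8 were called; their part in the channel differences was not tested.

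In sham rats no member was called between PVAT and BAT in edgeR's test. Above the ligature 0 of 48 were called, where 0.648% of all genes were. An unadjusted p under 0.05 was found for 6 members, against 8.12% of all genes, and 3 were called by DESeq2, whose share over all genes is not given here. The lowest p-values there were those of Kcnj3 at 7.90 ± 1.65 (SE, adjusted p = 0.063), Kcnk2 at 3.67 ± 1.0 (adjusted p = 0.176) and Kcnj5 at 2.82 ± 0.86 (adjusted p = 0.254), and the counts of Kcnj3 give at least 43.2-fold. Kcnj3 and Kcnk2 passed the count filter only through sham above, so for them a higher level in sham above was fixed by the filter. Below the ligature 0 of 48 were called, where 0.81% of all genes were. An unadjusted p under 0.05 was found for 5 members, against 10.5% of all genes, and 1 was called by DESeq2, again without its share over all genes. Among the lowest p-values were those of Kcng2 at 1.11 ± 0.26 (adjusted p = 0.0761) and Kcnd3. The title numbers pair sham below with sham BAT, and with the number as a block Kcng2 was called (1.03, adjusted p = 0.0232), which gives 1 member. Kcng2 was also called without sham above 26 or without sham below 26, with an adjusted p down to 0.00854, and Kcnj3 without sham above 20 or without sham below 28, with an adjusted p down to 0.00329. The medians were 0.08 above and -0.19 below, against -0.02 over all genes in both. In coarcted rats the difference of Kcng2 between PVAT and BAT had the other sign, at -0.32 ± 0.43 above and -0.45 ± 0.43 below, and was not called.

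No member passed the threshold between coarcted and sham rats. In coarct above minus sham above 0 of 51 members and 0% of all genes were called in edgeR's test. An unadjusted p under 0.05 was found for 0 members, against 3.59% of all genes, and 0 were called by DESeq2. Among the lowest p-values were those of Kcnab2 at -0.67 ± 0.33 (SE) and Kcnk4, the mechanosensitive leak channel TRAAK, at -0.53 ± 0.27, each with an adjusted p of 0.999. The median over members was 0.01, or -0.05 with Kcna6 set from a count floor of 3 in sham above, against 0.01 over all genes. In coarct below minus sham below 0 of 51 members and 0% of all genes were called in edgeR's test. An unadjusted p under 0.05 was found for 2 members, against 5.13% of all genes, and 0 were called by DESeq2. Kcnip4 stood at 1.08 ± 0.50, Kcnq5 at 0.75 ± 0.36 and Kcnma1 at 1.16 ± 0.57, each with an adjusted p of 0.881, and the median was 0.24 against 0.01 over all genes. Neuron transcripts differed in the same direction, in 4 of 6 coarct below and 1 of 5 sham below libraries. Without sham below 28, 1 member was called, and the share of all genes called in that fit is not given here. In coarct BAT minus sham BAT 0 of 40 members and 0% of all genes were called in edgeR's test. An unadjusted p under 0.05 was found for 2 members, against 6.8% of all genes, and 0 were called by DESeq2. Kcng2 stood at 1.08 ± 0.39 and Kcnab2 at -0.79 ± 0.30, with an adjusted p of 0.652 for both, and the median was -0.06 against 0.04 over all genes.

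Between sites along the aorta, the members named for their low p-values were heart and neuron followers and Kcnk2, which followed no list at the threshold, and none passed it here. In coarct above minus coarct below 0 of 51 members were called in edgeR's test, where 0.103% of all genes were. An unadjusted p under 0.05 was found for 15 members, against 5.43% of all genes. DESeq2 called 6, and its share over all genes is not given here. Higher above were Kcnj5 at 3.73 ± 0.76 (SE, adjusted p = 0.0579), Kcnj3 at 4.85 ± 1.07 (adjusted p = 0.076) and Kcnk2 at 3.62 ± 0.87 (adjusted p = 0.0861). Higher below were Kcnc4, at -3.09 ± 0.76 (adjusted p = 0.0861), and Kcna6 (adjusted p = 0.156), with 137 counts below and 3 above, a ratio of 47.5 with an exact 95% interval of 15.9 to 233 for counting error only. In the PVAT fit Kcnj3, Kcnj5 and Kcnk2 passed the count filter only through libraries from above, and Kcnc4 and Kcna6 only through those from below. Their directions were thus fixed by the filter, and the low p-values are no evidence about the members as a set. The number of called members rose to 8 without sham below 28, 6 without coarct below 19, 5 without coarct below 27, and 2 each without sham above 20 or coarct above 30. The share of all genes called in these fits is not given here. In sham above minus sham below 0 of 51 members were called in edgeR's test, where 0.0687% of all genes were. An unadjusted p under 0.05 was found for 9 members, against 5.33% of all genes, and 3 were called by DESeq2, again without its share over all genes. Kcnj5 stood at 4.04 ± 0.89 (adjusted p = 0.132), Kcnj3 at 4.90 ± 1.18 (adjusted p = 0.207) and Kcnk2 at 3.96 ± 0.99 (adjusted p = 0.253), and the count rose to 2 without sham above 20 and to 1 without coarct above 19 or coarct above 30. The medians were -0.16 in coarcted and 0.10 in sham rats, against 0.01 and -0.02 over all genes. Of the heart list, 7 of 7 tested genes in coarcted and 6 of 7 in sham rats were called higher above. The interaction of surgery and site gave 0 of 51 members and 0% of all genes in edgeR's test. There were 3 members at an unadjusted p under 0.05, against 2.42% of all genes, and 0 called by DESeq2. Lowest in p in edgeR's test were Kcnab2 (-1.12 ± 0.46), Kcna3, a Kv1 channel of lymphocytes (-2.38 ± 1.04), and Kcna2, a neuronal Kv1 channel (-1.42 ± 0.63), each at an adjusted p of 0.9999. The median of the interaction over members was -0.34, against 0.00417 over all genes.

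Partner genes of potassium channels, a list of 29 with other channels, pumps and auxiliary subunits, was tested beside them. With the neuron list 4 of 22 tested partners rose. They were Dpp6, a Kv4 partner, at a slope of 1.35 ± 0.17 (SE), Lrrc55, a gamma subunit of Kcnma1 channels, at 0.996 ± 0.16, Atp1b1, a sodium pump subunit, at 0.25 ± 0.04 and Cacnb3, a calcium channel subunit, at 0.23 ± 0.06, with adjusted p from 4e-06 to 0.0164. With the heart list 2 of 22 rose, among them Cacna1c, the L-type calcium channel pore, at 0.19 ± 0.04 (SE, adjusted p = 0.0435). With the skeletal and smooth muscle lists 0 of 22 partners were called in edgeR's test. Between groups, 1 partner was called higher in each of 6 comparisons and 0 in the other 4. Abcc8, the sulphonylurea receptor, was higher in sham below than in sham BAT by 3.11 ± 0.43 (adjusted p = 0.00242). In the other PVAT minus BAT comparisons it stood at 1.77 ± 0.42 for sham above (adjusted p = 0.0853), 1.42 ± 0.66 for coarct above (adjusted p = 0.29) and 1.76 ± 0.66 for coarct below (adjusted p = 0.126), none called. Cacnb3 was higher in coarct below than in coarct BAT by 1.19 ± 0.31 (adjusted p = 0.0406).

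The list of 12 adrenergic and thermogenic genes, such as Ucp1, had 0 genes called by edgeR in the 10 comparisons of groups. On the adipocyte list Ucp1 had a slope of 1.61 ± 0.49 (SE, adjusted p = 0.045).

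The remaining members were too low for tests. Counts sufficed for 51 of 90 members in PVAT, 48 in the fits of PVAT with BAT and 40 in BAT alone, and 37 members were tested in no slope. A member that passed only through neuron or heart transcripts had to differ with them, so the counts over tested members are not counts over the family. By family, the 11 followers were 4 voltage-gated pore subunits, 4 inward rectifiers, 2 auxiliary subunits and 1 calcium-activated channel subunit, and 0 tandem-pore leak channels and 0 modifier subunits. Of the leak channels 8 of 14 and of the modifier subunits 7 of 10 were not tested. Among these Kcnk9, the acid-sensitive leak channel TASK-3, singled out after its values were seen, had 19, 17, 5 and 5 counts in coarct below 23, 25, 29 and 30, 6 in sham below 28 and 0 in the other 26 libraries, so that its counts lay in the 5 neuron-rich libraries. The rectifiers Kcnj3, Kcnj5, Kcnj10 and Kcnj12 split over all 3 tissues.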

How the data were processed

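RNA of 31 libraries in 6 groups was analysed. Read counts per gene, in whole numbers, and FPKM were both deposited by the authors, and FPKM equals the count divided by gene length and by the library's total to a relative deviation of at most 2.86e-14. The submitters' processing notes name STAR 2.5, HTSeq 0.6.1 and DESeq2 1.24.0, while for the genome build and the strand setting: not given in the sources used here. Of 32883 entries, 8811 had no count and 25 had names turned into dates. The members and the gene lists were chosen with earlier results of these data known.

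The main tests used edgeR 4.0.16 in R 4.3.3 (counts, quasi-likelihood test, TMM scaling, edgeR's default filter on low counts, Benjamini-Hochberg adjustment over all genes tested, calls at 0.05). PVAT comparisons shared a fit of the 4 PVAT groups, comparisons with BAT a fit of the 3 groups of a surgery, and BAT its own. Slopes came from 31 libraries with group and the log2 summed CPM of marker lists (plus 0.5 CPM) as terms, 4 lists jointly and 5 others one at a time. Alternatives were DESeq2 1.42.0 (Wald test), limma 3.58.1 on log2(FPKM + 1) and log2(FPKM + 0.1), other scalings, filters and groups in the fit, list covariates, the split at 500 CPM of 12S rRNA, leaving out libraries, those over 100 CPM of the neuron list among them, and a replicate block. The tests were tried on simulated data.

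Named members were those called in a comparison (at most 12, or the 3 of lowest p where fewer were called), the 10 most abundant, up to 6 that followed each list, and vascular channels, and some of these are not reported here by name, though counts of members include them. The title number was taken to pair samples where every pair's residuals correlate above 0.1, which held for sham below and sham BAT (0.217 to 0.395 in 4 of 4 pairs). Nothing states that samples of a group or a number come from separate or from the same rats, so p-values measure only the spread between these samples, which may be technical. Totals of 15713160 to 26530733 counts limit precision for members with few counts, and intervals and floors (3 counts over a group) cover counting error only. Genes that overlap another gene could share its reads.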

Additional observations from a re-analysis of the deposited data

Results flagged for a closer look

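In 33 named members, 194 group ranges of 4 to 6 libraries were examined for a library far from the others, and 24 (12.4%) were flagged. The criterion is set so that chance flags about 1 in 20 such groups, and its chance rate in these FPKM values, many of them near 0, was not measured. Of these, 11 lie in the 5 libraries rich in neuron transcripts. All values are FPKM, beside the nearest of the group's other libraries.

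Sham below 28 stood apart for Kcna6 (0.238, nearest 0.00823), Kcnmb4 (1.59, nearest 0.319), Kcnj10 (0.941, nearest 0.358), Kcnc4 (1.83, nearest 0.353), Kcnk2 (0.156, nearest 0.0449) and Kcnj3 (0.105, nearest 0.0302). Coarct below 25 stood apart for Kcna7 (1.62, nearest 0.103), Kcnj10 (2.16, nearest 0.739), Kcnj12 (1.98, nearest 0.601) and Kcnn3 (2.53, nearest 1.09). Both libraries are rich in neuron transcripts, and coarct below 25 also holds 3225 CPM of the skeletal muscle list; the part of these transcripts in the flags was not tested.

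Coarct BAT 19, with 7025 CPM of the skeletal muscle list, stood apart for Kcna7 (1.49, nearest 0.137), Kcnc4 (3.11, nearest 0.267) and Kcnj12 (1.46, nearest 0.216). Coarct above 29, with 2125 CPM of that list, stood apart for Kcna7 (0.733, nearest 0.184) and Kcnc4 (0.331, nearest 0.118). Coarct above 19, with 2941 CPM of the heart list, stood apart for Kcnj3 (2.20, nearest 0.780), Kcnj5 (1.49, nearest 0.467) and Kcnk2 (2.41, nearest 0.580).

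Kcnk3 was high in sham BAT 24 (235, nearest 104) and in coarct below 30 (158, nearest 109). Kcna2 was high in sham BAT 22 (1.20, nearest 0.200) and Kcnmb4 in coarct above 25 (0.593, nearest 0.124). Near the limit of detection were Kcnk2 in coarct BAT 27 (0.10, nearest 0.0206) and Kcna6 in sham BAT 24 (0.00852), in a group otherwise at 0.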

How the results depend on the processing

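Numbers of called members moved by over 1.5 times in 35 alternatives that left out no single library and not in 123, and the cause was not tested except where fewer genes or samples were in the fit. For the alternatives in this section, also those that left out a library, the share of all genes called is not given here. The numbers are therefore no evidence about the members as a set. DESeq2's Wald test called 6 for coarct above minus coarct below, 3 for sham above minus sham below, 3 for sham above and 1 for sham below minus sham BAT, 8 for coarct below minus coarct BAT, 4 on the heart list and 1 on the smooth muscle list. With the spread of all 6 groups edgeR called 6 for coarct above minus coarct below, 1 for sham above minus sham BAT and 7 for coarct below minus coarct BAT. For sham above minus sham BAT 1 was also called without a filter on low counts, without the neuron-rich libraries and within the libraries with few 12S reads. Limma on log2(FPKM + 1) called 1 for coarct above and 2 for coarct below minus coarct BAT. For these 2 comparisons 0 were called with both groups alone, with list covariates or within either side of the 12S split, and without the neuron-rich libraries 1 and 0 were. With covariates, which cannot separate the heart list from these groups, Kcnj5 in coarct above minus coarct BAT reversed to -0.67.

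With each list fitted alone 12 members followed the neuron list. In the 22 PVAT libraries 1 followed the skeletal muscle list, 0 were called on the endothelial and 4 on the macrophage list. The title number as a replicate block gave 1 member for sham above minus sham BAT, 1 for sham below minus sham BAT, 2 for coarct below minus coarct BAT, and 1, 0 and 1 on the neuron, heart and skeletal muscle lists. Outside sham below and sham BAT the numbers did not pair the samples by the rule used: over 0.1 were 5 of 6 pairs of coarct above and below (from 0.0533), 3 of 5 of sham above and below, 4 of 5 each of coarct above and below with BAT, and 1 of 4 of sham above with BAT. The best correlation was with the own number in 4 of 6, 3 of 5, 3 of 5, 4 of 5 and 1 of 4 of these in turn. For sham below with BAT it was 3 of 4. The rule may thus miss pairing, and the main fits treated libraries of the same number as independent. Coarct and sham share no number, so no block was possible between them.

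Leaving out 1 library gave 0 to 8 members for coarct above minus coarct below, 0 to 2 for sham above minus sham below, 0 to 1 for coarct below minus sham below and for both sham comparisons with BAT, 0 to 4 for coarct above minus coarct BAT (0 to 2 where moved), 1 to 10 for coarct below minus coarct BAT, and 3 to 9, 0 to 4 and 1 to 3 on the neuron, heart and skeletal muscle lists. This was not run for the 5 lists fitted one at a time. Of single members' alternatives, 581 kept direction and side of the threshold, 64 lost and 18 gained a call, 38 uncalled values moved and 1 reversed. Depth limits the 37 members tested in no slope.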
